A study of Mus musculus with 6 samples.

Results

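Tex11, Xlr3a, Trap1a, Pnma5 and Morc4 are 5 protein-coding genes of the mouse X chromosome, grouped here as germline and tumour antigen type genes. They were taken by name from the 372 X-linked genes that both deposited tables list, and all 5 were found in both. The RNA came from female mouse embryonic stem cells. Their line is named 16.7 TST and their genotype is given as wild type (WT). It was sequenced in 6 libraries, of which 2 were made on each of day 0, day 4 and day 7 of differentiation. Day 0 cells grew in LIF on irradiated mouse embryonic fibroblasts, which are the feeder cells of the culture. The differentiating cells had been taken off the feeders, grew without LIF as embryoid bodies and were plated on gelatin from day 4. The labels do not explain TST, and they do not say whether the pair of libraries of a day were separate cultures, so the p-values reflect the spread between libraries that may differ only technically. The study's title concerns Jpx RNA and the induction of Xist, the RNA that coats the X chromosome to be silenced in female cells.

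In female cells 1 of the 2 X chromosomes is silenced as the cells leave pluripotency, and the reads here were split into those of the cas allele and those of the mus allele of each gene. In the file headers, Xi stands for the mus share and Xa for the share of cas. Some genes used mainly in germ cells are also expressed in mouse embryonic stem cells, and a repressor complex with E2F6, MGA, MAX and Polycomb proteins keeps many of them low outside the germ line. Tex11 acts in chromosome synapsis and crossing over in male meiosis. Xlr3a belongs to the Xlr genes, a multicopy X-linked family related to the synaptonemal complex protein Sycp3. Trap1a encodes the P1A tumour rejection antigen, known from a mouse mastocytoma and from testis and placenta. Pnma5 is a member of the paraneoplastic Ma antigen family, which derives from the Gag gene of a retrotransposon. Morc4 encodes an ATPase of the MORC family, whose members act in chromatin and germ cells. In bulk RNA, fewer cells of a type and less RNA per cell cannot be told apart.

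On GRCm38, in the GENCODE M21 annotation, Pnma5 lies at chrX:73033981-73037103 on the minus strand and its longest transcript has 1 exon. Xlr3a lies 49.2 kb from it at chrX:73086293-73097095, also on the minus strand, with 7 exons. Tex11 spans 221 kb at chrX:100838648-101059667 on the minus strand, with 30 exons. Trap1a occupies chrX:139333683-139338169 on the plus strand with 3 exons, inside the noncoding RNA gene Platr21 on the opposite strand, with which it shares 0 exon bases. Morc4 follows 483 kb away at chrX:139821632-139871677 on the minus strand, with 16 exons. No gene measured here lies between Pnma5 and Xlr3a, and 3 lie between Trap1a and Morc4. Xlr3a has near copies, and 44.8% of the 50-base stretches of its transcripts also occur in other genes, 38.8% in Xlr3b and 15.7% in Xlr3c. Pnma5 shares 25.9% of such stretches with Pnma3, and Tex11, Trap1a and Morc4 share 0. Reads of Xlr3a, and less so of Pnma5, could therefore have been split or dropped in counting, and their values are less certain.

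Start site windows are shown because 3 of these genes declined together while Morc4 did not. Each runs from 250 bases before to 50 bases after the RefSeq start (GRCm38.p6), 5′ to 3′ on the gene's strand, and the table holds entries for these 4 genes. The windows are chrX:73097046-73097345 (minus) for Xlr3a, chrX:139333433-139333732 (plus) for Trap1a, chrX:73037054-73037353 (minus) for Pnma5 and chrX:139871605-139871904 (minus) for Morc4. Capitals mark each CG pair and each match of GCGGGAA, an E2F-type motif, on either strand (TTCCCGC on the printed strand).
Xlr3a: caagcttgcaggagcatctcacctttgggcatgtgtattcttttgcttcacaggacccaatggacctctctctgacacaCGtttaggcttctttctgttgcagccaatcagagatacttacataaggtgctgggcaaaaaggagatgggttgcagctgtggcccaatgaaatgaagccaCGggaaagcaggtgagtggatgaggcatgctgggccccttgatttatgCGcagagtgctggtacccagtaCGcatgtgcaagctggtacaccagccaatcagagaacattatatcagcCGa
Trap1a: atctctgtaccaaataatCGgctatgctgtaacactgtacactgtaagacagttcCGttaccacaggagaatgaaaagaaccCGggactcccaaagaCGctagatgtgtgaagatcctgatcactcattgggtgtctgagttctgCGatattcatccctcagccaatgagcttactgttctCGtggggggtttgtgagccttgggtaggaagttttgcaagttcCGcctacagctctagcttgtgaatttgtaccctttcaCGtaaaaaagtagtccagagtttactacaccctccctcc
Pnma5: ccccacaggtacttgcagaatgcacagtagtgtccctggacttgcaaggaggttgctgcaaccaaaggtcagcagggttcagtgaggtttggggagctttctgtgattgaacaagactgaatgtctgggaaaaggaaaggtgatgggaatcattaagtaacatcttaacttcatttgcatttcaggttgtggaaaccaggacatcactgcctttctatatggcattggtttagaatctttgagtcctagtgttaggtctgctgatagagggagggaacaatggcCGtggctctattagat
Morc4: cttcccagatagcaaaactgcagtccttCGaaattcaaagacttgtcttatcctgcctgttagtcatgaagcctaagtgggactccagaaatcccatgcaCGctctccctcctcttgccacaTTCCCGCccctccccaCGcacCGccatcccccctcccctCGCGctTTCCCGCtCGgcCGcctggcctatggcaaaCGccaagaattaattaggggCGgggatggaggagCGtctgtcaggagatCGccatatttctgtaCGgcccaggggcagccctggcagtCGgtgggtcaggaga

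The 4 windows differed in CG pairs. Morc4 had 16, Trap1a 8, Xlr3a 5 and Pnma5 1, against a median of 7 over all 32851 RefSeq windows of the same length. Morc4 also held 2 copies of GCGGGAA, both on the strand opposite the printed one, while Xlr3a, Trap1a and Pnma5 held 0. At least 1 copy occurred in 4.60% of all windows and at least 2 in 0.234%. The E-box CACGTG, the type of site that MGA and MAX recognise, was in 0 of the 4 windows and in 7.15% of all windows. GCGGGAA and CACGTG cannot overlap each other by more than 1 base. These matches describe letters in the windows and no binding.

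The 6 libraries held between 69742 and 160218.5 allele-specific reads, fewest at day 7, and counts came in steps of 0.5. The median gene's mus share was 48.1% ± 0.0723 at day 0, 19.8% ± 0.109 at day 4 and 4.35% ± 0.374 at day 7 (SD, n = 2 libraries). TPM, a transcript abundance scaled by gene length and library total, give the levels below. In log2 TPM, the difference between the day 7 libraries follows from the differences at days 0 and 4, as described with the processing. The closeness of the day 7 pair and its small SDs may therefore not measure the spread between replicates. The median level over genes, in log2(TPM + 1), shifted by 0.20 at day 4 and by -0.31 at day 7 relative to day 0, and by -0.51 at day 7 relative to day 4. Of 10 listed pluripotency markers, 7 were measured, all X-linked, while Pou5f1, Nanog and Zfp42 were not. The 7 summed to between 1698 and 1699 TPM at day 0, between 557 and 574 TPM at day 4 and between 468 and 474 TPM at day 7, with none at 0. By limma's moderated test (adjusted p under 0.05), 6 of the 7 were lower at day 4 than at day 0, against 40.6% of all genes. At day 7, 6 were lower than at day 0 and Zfp185 was higher, against 54% lower and 30.9% higher of all genes. Relative to day 4, 4 were lower at day 7 and Dusp9 and Zfp185 were higher, against 60.5% and 25.5% of all genes. The sum of the markers declined along with 4 of the 5 genes, and its part in their decline was not tested. Fibroblast markers (7 of 9 measured) summed to between 883 and 909, between 634 and 657 and between 932 and 941 TPM at those days, with none at 0. The 5 listed autosomal germ cell markers were not measured, so the presence of germ cells was not tested.

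Tex11, Xlr3a, Trap1a and Pnma5 were expressed at day 0 and fell at both later days, while Morc4 dipped at day 4 and was highest at day 7. Relative to day 0, all 5 genes were lower at day 4, where 40.6% of the 372 genes were lower. At day 7, 4 were lower than at day 0, against 54% of all genes, and Morc4 was higher, against 30.9% of all genes. Relative to day 4, the same 4 were lower at day 7 and Morc4 higher, against 60.5% lower and 25.5% higher of all genes. The members' median change in log2(TPM + 1) was -1.39 at day 4 relative to day 0, -3.16 at day 7 relative to day 0 and -1.76 at day 7 relative to day 4, where the median over all genes was 0.01, -0.37 and -0.50. Calls are at a Benjamini-Hochberg adjusted p under 0.05 over all 372 genes in limma's moderated test on log2(TPM + 1). With the median gene of each library as the zero, the same counts of members were lower and higher, while the split of all genes shifted. The split was 185 lower (49.7%) and 128 higher (34.4%) at day 4, where it had been 151 and 154. At day 7 it was 173 (46.5%) and 164 (44.1%) relative to day 0, where it had been 201 and 115, and 157 (42.2%) and 163 (43.8%) relative to day 4, where it had been 225 and 95.

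**Figure D1:**
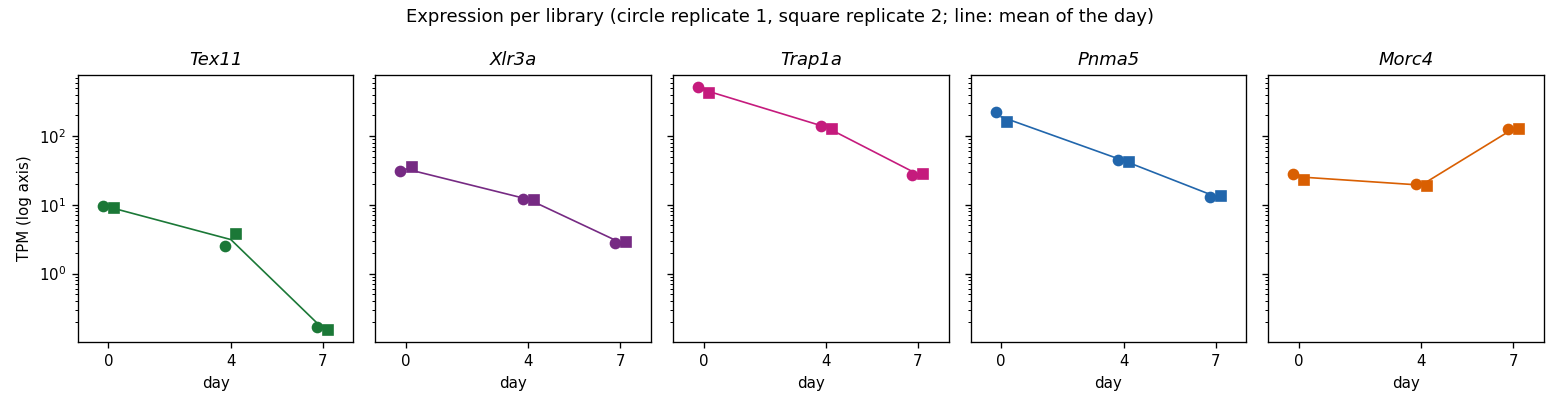
TPM of each gene (log axis) by day, with 1 circle and 1 square for the 2 libraries of a day and a line through the day means. Tex11, Xlr3a, Trap1a and Pnma5 decline through both steps, and Morc4 reaches 127 and 128 TPM at day 7.

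Tex11, the meiosis gene, was the lowest of the 5. It had 9.49 and 9.12 TPM at day 0, 2.51 and 3.73 TPM at day 4 and 0.167 and 0.151 TPM at day 7, and the days did not overlap. Its day 7 level was 1.71% of the day 0 level, and only 0.5 of an allele-specific read was assigned in the 2 day 7 libraries together. The change in log2(TPM + 1) was -1.34 ± 0.15 at day 4 (SE, adjusted p = 0.000107, limma) and -3.15 ± 0.15 at day 7 (adjusted p = 4.85e-07, limma), both relative to day 0. On this scale the added 1 TPM reduces the change of so low a gene. By TPM it ranked 315, 365 and 369 of 372 at days 0, 4 and 7.

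Xlr3a had 30.8 and 35.7 TPM at day 0, 12.2 and 11.8 TPM at day 4 and 2.81 and 2.84 TPM at day 7. Each day lay below the one before it without overlap. Its change in log2(TPM + 1) was -1.39 ± 0.09 at day 4 and -3.16 ± 0.09 at day 7 relative to day 0 (SE, adjusted p = 4.57e-06 and 3.02e-08, limma). The further fall at day 7 relative to day 4, -1.76 ± 0.09 (adjusted p = 8.19e-07, limma), missed the threshold in DESeq2 on the summed allele reads (adjusted p = 0.0954), which numbered 5.5 at day 7.

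Trap1a, the P1A antigen gene, was the fifth most abundant of the 372 genes at day 0. Its TPM were 517 and 422 at day 0, 140 and 129 at day 4 and 27.5 and 27.9 at day 7, with no overlap between days. The mean was 3.49-fold lower at day 4 and 16.9-fold lower at day 7 than at day 0, and its rank passed to 59 at day 4 and 209 at day 7. The change in log2(TPM + 1) was -1.79 ± 0.10 at day 4 and -4.03 ± 0.10 at day 7 relative to day 0 (SE, adjusted p = 2.33e-06 and 1.73e-08, limma).

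Pnma5, the Gag-derived gene, had 222 and 159 TPM at day 0, 45.02 and 42.6 TPM at day 4 and 13.1 and 13.2 TPM at day 7. Here too every library of a day lay below all libraries of the day before. The mean was 4.34-fold lower at day 4 and 14.4-fold lower at day 7 than at day 0. In log2(TPM + 1) the change was -2.07 ± 0.14 at day 4 and -3.73 ± 0.14 at day 7 relative to day 0 (SE, adjusted p = 6.88e-06 and 1.49e-07, limma). It was 1 of 10 genes whose mean log2(TPM + 1) fell by over 2 by day 4.

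Morc4 had 28.0 and 22.9 TPM at day 0, 19.8 and 18.8 TPM at day 4 and 127 and 128 TPM at day 7. The day 7 libraries stood above all others. Its day 4 change in log2(TPM + 1), -0.37 ± 0.09 relative to day 0 (SE, adjusted p = 0.00728, limma), was the smallest of the 5 and missed the threshold without day 4 replicate 2 (adjusted p = 0.0571). At day 7 the mean was 5.01-fold the day 0 mean, a change in log2(TPM + 1) of 2.29 ± 0.09 (adjusted p = 2.28e-07, limma), and relative to day 4 it was 2.66 ± 0.09 (adjusted p = 1.27e-07, limma). By TPM Morc4 moved to rank 54 at day 7, after 238 at day 0 and 284 at day 4.

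At day 0, before differentiation, edgeR called the 2 alleles unequal at 4 of the 5 genes, calls that rest on its spread shared across genes, and Pnma5 lay close to an equal share. The mus share was 21.9% and 22.5% for Tex11, of 48 and 51 reads, 39.2% and 28.1% for Xlr3a, of 39.5 and 69.5 reads, and 37.4% and 42.2% for Morc4, of 97.5 and 83 reads. Trap1a had 56.9% and 55.4% of 355 and 271 reads, and Pnma5 had 50.8% and 51.04% of 848 and 767 reads. So both libraries lay under an equal share for Tex11, Xlr3a and Morc4 and over it for Trap1a. By edgeR (quasi-likelihood test, Benjamini-Hochberg adjustment), mus reads were fewer than cas reads for Tex11 (log2 ratio -1.81 ± 0.47, SE, adjusted p = 0.000203), Xlr3a (-1.02 ± 0.39, adjusted p = 0.0271) and Morc4 (-0.62 ± 0.24, adjusted p = 0.0340). They were more for Trap1a (0.36 ± 0.14, adjusted p = 0.0284), and Pnma5 missed the threshold (0.05 ± 0.08, adjusted p = 0.681). Of all genes 19.4% were lower and 9.68% higher, and with the median gene of each library as the zero the split was 52 lower (14%) and 54 higher (14.5%), where 72 and 36 were before, with Tex11 lower and Trap1a higher among the members. The 4 calls were lost without either day 0 library, with adjusted p between 0.0928 and 0.595. They were also lost in DESeq2, with adjusted p of 0.116 for Tex11, 0.375 for Xlr3a, 0.513 for Trap1a and 0.199 for Morc4, and in a quasi-binomial model with each gene's own spread (0.168, 0.0950, 0.219 and 0.0914).

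Feeder fibroblasts were in the day 0 culture, and 2 of the 7 measured fibroblast markers, Bgn and Col4a5, were almost wholly mus there. Bgn, a matrix proteoglycan, had 90.8 ± 10.02 TPM and a mus share of 99.9% ± 0.159 at day 0, against 1.89 ± 0.460 TPM at day 4 (SD, n = 2). Col4a5, a basement membrane collagen, had a mus share of 98.3% ± 2.38 at day 0, while its TPM did not pass the test at day 4, at 4.42 ± 0.292 against 5.06 ± 0.190 at day 0. Col4a6 had 79.8% ± 6.80 of a mean of 7.25 reads and Timp1 72.3% ± 0.135, while Fhl1 (48.6% ± 4.77), Flna (54.0% ± 0.470) and Msn (53.1% ± 1.07) were near an equal share at day 0. In TPM, 3 of the 7 markers were lower at day 4 than at day 0 (Bgn, Msn and Timp1), against 40.6% of all genes. Of the others, 2 were higher (Col4a6 and Fhl1), against 41.4% of all genes, and 2 did not pass the test by limma. The part of feeder RNA in the members' day 0 shares was not tested.

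By day 4 the mus share of most X-linked genes had dropped, but among these 5 genes only Morc4 dropped past the threshold. Pnma5 kept 50.7% and 48.4% mus reads, of 245.5 and 200.5 reads, and Trap1a had 60.1% and 67.9% of 119 and 93.5 reads. Xlr3a had 28.6% and 37.5% of 28 and 24 reads, and Tex11 32.5% and 61.9% of 20 and 21 reads. Morc4 had 19.5% and 14.9% of 87 and 67 reads. Both libraries of Pnma5, Trap1a, Xlr3a and Tex11 thus lay above the median gene's 19.8%, and both libraries of Morc4 lay below it.

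**Figure D2:**
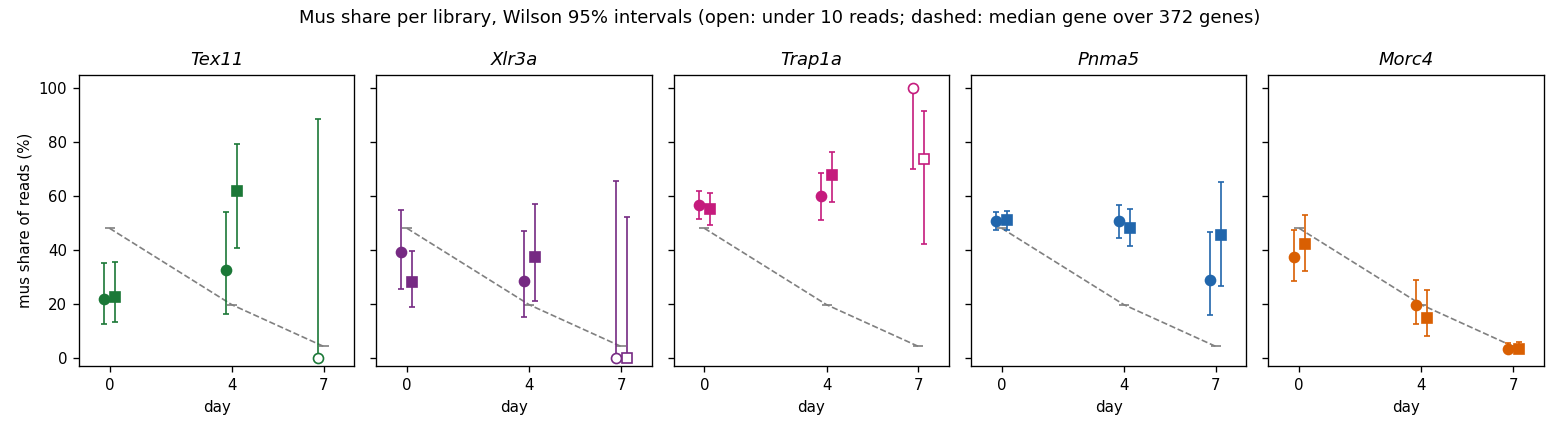
Mus share (percent of allele-specific reads) per library by day, with Wilson 95% intervals that cover counting error only; open symbols have under 10 reads, and the dashed line is the median share over the 372 genes. Pnma5 and Trap1a lie above the line at days 4 and 7, and Morc4 runs near it.

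Changes in share are given as the change in the log2 ratio of mus to cas reads. At day 4 relative to day 0, 1 of the 5 genes was lower, where 87.9% of all genes were, and 1 was higher, where 0.806% were. Morc4 fell by 1.60 ± 0.41 (SE, adjusted p = 6.54e-05, edgeR's quasi-likelihood test). Tex11 was higher by 1.61 ± 0.76 (adjusted p = 0.0392, the same test), on 41 reads in all at day 4, and without day 4 replicate 2 the change was 0.62 (adjusted p = 0.499). The Tex11 call was also lost without either day 0 library (adjusted p = 0.139 and 0.105), in DESeq2 (0.181) and in the quasi-binomial model (0.174). The other 3 missed the threshold, Pnma5 with -0.08 ± 0.16 (adjusted p = 0.655), Trap1a with 0.44 ± 0.27 (adjusted p = 0.102) and Xlr3a with -0.00 ± 0.68 (adjusted p = 0.998). The standard error of Xlr3a leaves room for a sizeable change in either direction.

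Setting each gene against its library's median gene tests the difference from the typical X-linked gene. On that scale the day 4 change was higher for Tex11 (3.46, adjusted p = 4.72e-05), Trap1a (2.32, adjusted p = 2.11e-17), Xlr3a (1.86, adjusted p = 0.0222) and Pnma5 (1.80, adjusted p = 2.55e-24, edgeR's quasi-likelihood test). For Morc4 it was 0.27 (adjusted p = 0.641), so no difference from the median gene was detected. Of all 372 genes 22% were higher and 18.5% lower on this scale, 82 and 69 genes. By share at day 4, Trap1a ranked 3, Pnma5 5, Tex11 8, Xlr3a 46 and Morc4 219 of the 364 genes with at least 10 reads in each day 4 library.

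At day 7 the read numbers limit what can be said. Tex11 had 0.5 of a read and Xlr3a 5.5, all cas, so their shares could not be compared. Wilson intervals for Xlr3a reached up to 65.8% and 52.3% mus in the 2 libraries. Morc4, with 402.5 and 321 reads, had mus shares of 3.48% and 3.43%. Pnma5 had 29.0% and 45.5% of 31 and 22 reads, and Trap1a 100% of 9 reads and 73.7% of 9.5 reads, with Wilson intervals from 70.1% to 100% and from 42.3% to 91.5%. The 3 genes with reads therefore lay far apart, with Morc4 near the median gene's 4.35% and the other 2 above it in both libraries.

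Relative to day 0, the day 7 share was lower for 2 of the 3 genes with at least 10 reads in all, against 89.8% of all genes. It was higher for 1, Trap1a, against 0.538% of all genes, and neither day 7 library of Trap1a reached 10 reads. Morc4 fell by 4.18 ± 0.40 (SE, adjusted p = 8.84e-28, edgeR's quasi-likelihood test), and Pnma5 fell by 0.89 ± 0.43 (adjusted p = 0.0402). Trap1a was higher by 2.55 ± 1.18 (adjusted p = 0.00740). Single libraries decided the last 2 values: without day 7 replicate 1 the change was -0.31 for Pnma5 (adjusted p = 0.647) and 1.41 for Trap1a (adjusted p = 0.217), and Pnma5 also missed the threshold without either day 0 library (adjusted p = 0.0623 and 0.0621). Pnma5 missed it in DESeq2 (adjusted p = 0.0682) and the quasi-binomial model (0.0754), and Trap1a in limma on the logit (0.102) and the quasi-binomial model (0.115). Against the median gene, Trap1a (6.42, adjusted p = 1.95e-12) and Pnma5 (3.03, adjusted p = 4.11e-08) were higher, as were 16.9% of all genes, and Morc4 had -0.26 (adjusted p = 0.662), all by edgeR. On that scale 41 genes (11%) were lower and 63 higher, where the unscaled test had 334 and 2.

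Between day 4 and day 7, Morc4 fell by 2.57 ± 0.46 (SE, adjusted p = 2.29e-07, edgeR's quasi-likelihood test), as did 68.3% of all genes. Trap1a was higher by 2.11 ± 1.20 (adjusted p = 0.0441), as were 1.08% of all genes, and without day 7 replicate 1 its change was 0.97 (adjusted p = 0.458); leaving out any library but day 7 replicate 2 lost the call, as did limma on the logit (adjusted p = 0.292), DESeq2 (0.0835), the quasi-binomial model (0.213) and unrounded counts (0.0676). Pnma5 had -0.81 ± 0.45 (adjusted p = 0.0902) and passed the threshold without day 7 replicate 2 (-1.26, adjusted p = 0.0482). Relative to each library's median gene, Trap1a was higher by 4.096 (adjusted p = 8.69e-05), Pnma5 missed the threshold with 1.22 (adjusted p = 0.0556) and Morc4 did with -0.53 (adjusted p = 0.478). All genes then split into 20 lower (5.38%) and 43 higher (11.6%), against 254 and 4 unscaled.

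Multiplying TPM by each allele's share describes how much of a gene's level each allele gave. Both alleles of Pnma5 declined alike to day 4, where the mus allele gave 21.7 ± 1.57 and the cas allele 22.1 ± 0.138 TPM, after 96.8 ± 22.4 and 93.3 ± 22.1 TPM at day 0 (SD, n = 2). At day 7 they gave 4.91 ± 1.55 and 8.27 ± 1.499 TPM. For Trap1a the mus allele gave 264 ± 42.9, 85.8 ± 2.04 and 24.0 ± 4.87 TPM at days 0, 4 and 7, and the cas allele 206 ± 24.4, 48.6 ± 10.5 and 3.68 ± 5.20 TPM. Its day 7 level was 9.11% of the day 0 level on the mus allele and 1.79% on the cas allele, where the cas value rests on 2.5 reads in all.

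Morc4 showed another course. Its mus allele gave 10.1 ± 0.570, 3.34 ± 0.754 and 4.40 ± 0.0232 TPM at days 0, 4 and 7, and its cas allele 15.4 ± 3.002, 16.0 ± 0.0401 and 123 ± 0.695 TPM (SD, n = 2). The cas level was thus 8.001-fold higher at day 7 than at day 0, while the mus level was at 43.7% of its day 0 value. For Tex11 the mus allele gave 2.07 ± 0.0127 TPM at day 0 and 1.56 ± 1.06 TPM at day 4, and the cas allele 7.24 ± 0.244 and 1.56 ± 0.194 TPM. In both day 4 libraries the cas level of Tex11 was below both day 0 libraries, while the mus levels overlapped. Xlr3a declined on both alleles, with 3.95 ± 0.663 mus and 8.04 ± 0.948 cas TPM at day 4 and 11.04 ± 1.45 mus and 22.2 ± 4.94 cas TPM at day 0. These products carry the error of both tables and were not tested.

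**Figure D3:**
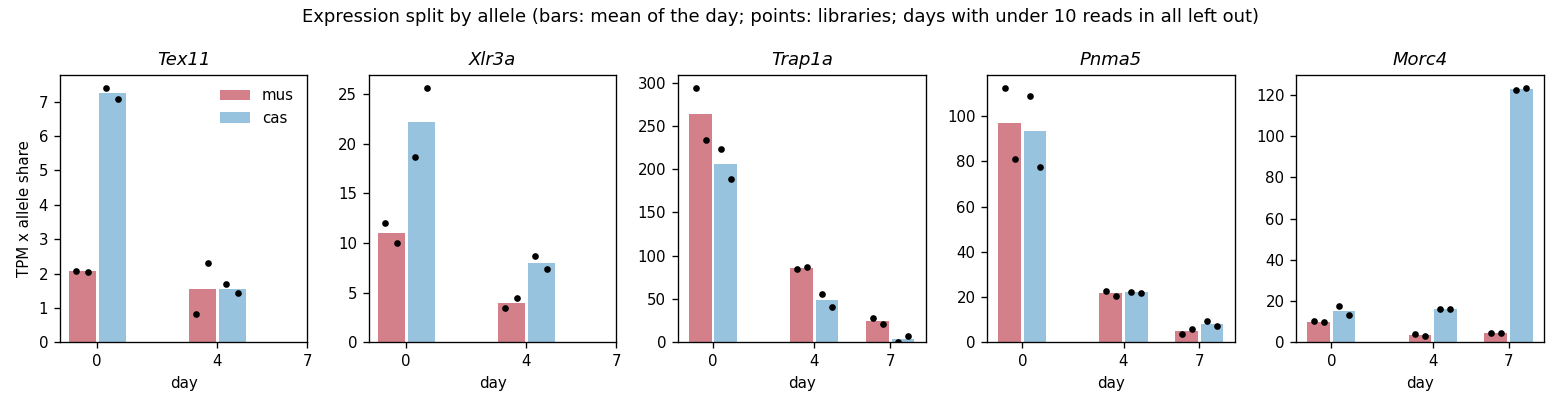
TPM times allele share for the mus allele (red, left bar) and the cas allele (blue, right bar) by day; bars are day means, points are libraries, each panel has its own axis from 0, and days with under 10 reads in all are left out. The cas bar of Morc4 reaches 123 TPM at day 7, while both bars of Pnma5 shrink alike to day 4.

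Across the chromosome, genes that fell in expression by day 4 tended to keep more mus reads, and the 4 declining genes lie among them. With at least 10 reads in every day 0 and day 4 library, 8 genes that fell by over 2 in mean log2(TPM + 1) had a median day 4 mus share of 38.9%, Pnma5 among them. The 24 genes that fell by 1 to 2 had 27.7% (Tex11, Xlr3a and Trap1a), the 265 that changed by under 1 had 20.9% (Morc4), and the 44 that rose by 1 or more had 10.3%. Over these 341 genes the correlation of the TPM change with the day 4 share was -0.41 (Pearson) and -0.49 (Spearman), a description only, since genes share libraries and the reads of a gene enter both measures. Tex11, Trap1a and Pnma5 were among the 9 genes at 45% or more mus reads, with AU022751, Alg13, Nexmif, Nono, Platr21 and Xist. By day 7 the medians in the same 4 classes of change were 7.71%, 6.91%, 4.55% and 3.08%, where Pnma5 was in the class that fell most and Morc4 in the class that rose. The class that fell most held 51 genes, of which 22 had at least 10 reads in every day 0 and day 7 library and entered its median. Tex11, Xlr3a and Trap1a were also in this class but had too few reads to enter it.

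**Figure D4:**
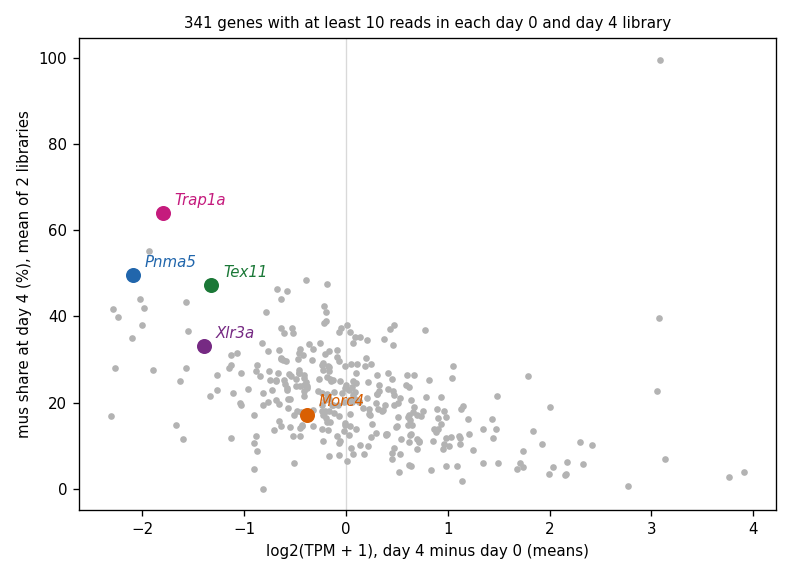
Mus share at day 4 (percent, mean of 2 libraries) against the change in mean log2(TPM + 1) at day 4 relative to day 0 for 341 genes; the 5 named genes are coloured. Trap1a, Pnma5 and Tex11 stand at the upper left, at 64.0%, 49.5% and 47.2%.

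The nearest measured neighbours on the chromosome are described beside each gene. Zfp185, which encodes a LIM-domain protein and ends 2.44 kb from Pnma5, had mus shares of 62.1% ± 4.36, 23.4% ± 2.21 and 4.90% ± 0.191 at days 0, 4 and 7 (SD, n = 2), a change in the log2 ratio of -2.39 ± 0.23 at day 4 (adjusted p = 7.21e-26, edgeR's quasi-likelihood test), whereas Pnma5 had -0.08. F8a, 131 kb past Xlr3a, had 56.8% ± 30.5, 12.4% ± 8.40 and 0% ± 0, the last of a mean of 16 reads. Dlg3, a synaptic scaffold gene 20.2 kb from Tex11, had 55.2% ± 1.20, 17.1% ± 0.0956 and 3.09% ± 0.191, and Slc7a3, an amino acid transporter gene 19.5 kb on its other side, had 35.3% ± 0.0378, 17.1% ± 2.996 and 8.94% ± 2.89. By the same test all 4 of these neighbours had a lower share at day 4 than at day 0, as did 87.9% of all genes. None of Pnma5, Xlr3a and Tex11 had a lower share, and these differences between neighbours were not themselves tested.

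Beside Trap1a, its overlapping antisense partner Platr21 had mus shares of 62.4% ± 5.50 and 46.3% ± 8.93 at days 0 and 4 and too few reads at day 7, a change of -0.95 ± 0.50 at day 4 (adjusted p = 0.0623, edgeR's quasi-likelihood test). Platr21 had 5.60 ± 0.395 TPM at day 0, against 469 ± 67.3 TPM for Trap1a. Their exons do not overlap, so exon reads of the pair fall at different positions. Whether counting used strand or introns is not given in the sources used here, and without strand intronic reads cannot be told apart. Rnf128, a ubiquitin ligase gene 225 kb away, had 39.1% ± 4.65, 6.08% ± 3.85 and 1.91% ± 0.0728 at the 3 days. Next to Morc4, Rbm41, an RNA-binding protein gene, had 47.0% ± 6.18, 23.8% ± 7.25 and 4.17% ± 2.18, a course near that of Morc4. Ripply1, a transcriptional corepressor gene 39.3 kb from Morc4, had 43.0% ± 5.70, 41.7% ± 1.93 and 1.85% ± 2.62, and its TPM fell to 19.3 ± 2.26 at day 4, against 98.0 ± 10.3 at day 0.

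**Figure D5:**
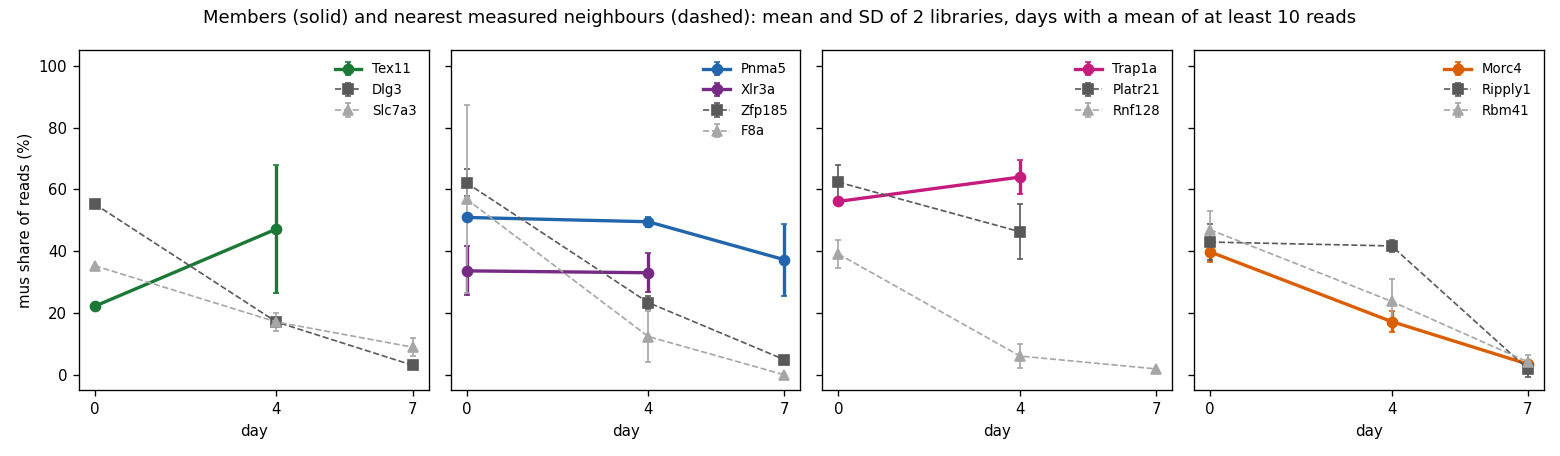
Mus share (percent, mean and SD of 2 libraries) by day for the named genes (solid) and their nearest measured neighbours (dashed), for days with a mean of at least 10 reads. Pnma5 stays at 49.5% at day 4, where Zfp185, 2.44 kb away, is at 23.4%.

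Genes with the most similar course were taken by fixed measures over the same libraries. In log2(TPM + 1) the closest by Pearson correlation over 6 libraries were Ebp, Siah1b and Rhox1 for Tex11 (r at least 0.9974), Rhox1, Rhox9 and Pgrmc1 for Xlr3a, Pgrmc1, Rhox6 and Yy2 for Trap1a, and Ofd1, 8030474K03Rik and Otud6a for Pnma5. Rhox1, Rhox6 and Rhox9 are homeobox genes of the reproductive Rhox cluster. Morc4 was closest to Cited1, a transcriptional cofactor gene, Col4a5 and Asb12. With 3 days, such a correlation mainly orders the day means and says little of size: Ebp had 97.3, 85.7 and 71.6 TPM while Tex11 lost nearly all of its level. By mus share, Pnma5 differed least from Nexmif, with a mean absolute difference of 2.26 percentage points, from Kdm6a with 3.597 and from Utp14a with 7.16, over 6 libraries and 288 candidate genes. Kdm6a encodes a histone demethylase known to escape X inactivation. Morc4 differed least from Nbdy (1.18 points), Mtmr1 (1.62) and Sms (1.64). Over the 4 libraries of days 0 and 4, the least different from Trap1a were Alg13 (8.42 points), AU022751 (8.78) and Pnma5 (9.82). For Xlr3a they were Eif2s3x (4.41), Mcf2 (5.36) and AU015836 (5.97). For Tex11 even the least different were far off, Nr0b1 by 12.0 points, Xlr3a by 12.8 and AU015836 by 14.8.

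Related X-linked genes did not all follow these courses. The germ cell list held 27 entries, with the whole Rhox cluster as a single entry. Only 4 genes were measured, Tex11 and, from that cluster, Rhox1, Rhox6 and Rhox9. All 4 were lower in TPM in each of the 3 comparisons by limma. Of all genes, 40.6% were lower at day 4 and 54% at day 7 relative to day 0, and 60.5% at day 7 relative to day 4. At day 4 none of the 4 had a lower mus share, against 87.9% of all genes, and Tex11 alone had a higher one, against 0.806%. Their median change in log2(TPM + 1) at day 4 was -1.998, against 0.01 over all genes, and their median share change was 0.03, against -1.81. Rhox6 had mus shares of 39.3% ± 1.84 at day 0 and 38.0% ± 6.10 at day 4, and Rhox9 39.8% ± 5.66 and 41.9% ± 0.649 (SD, n = 2). Rhox1 had 71.8% ± 6.81 and 67.4% ± 12.8, the latter of a mean of only 10.25 reads. Rhox6 and Rhox9 also stand on the list of pluripotency markers. The only other Xlr gene measured, Xlr, had 0.437 ± 0.269, 6.22 ± 0.547 and 0.179 ± 0.00663 TPM at days 0, 4 and 7 and no mus read, so its level peaked at day 4, where that of Xlr3a had fallen.

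The list of tumour antigen families held Trap1a and every symbol that starts with Mage, Ssx, Gage, Xage or Page. Of these, 5 genes were measured, and all but Trap1a were Mage genes. Maged1, Maged2, Magee1 and Mageh1 had lower mus shares at both later days than at day 0, while Trap1a did not. Shares were lower for 87.9% of all genes at day 4 and 89.8% at day 7. The median share change of the 5 was -2.58 at day 4 and -4.56 at day 7 relative to day 0, against -1.81 and -4.22 over all genes. Maged1, a MAGE-family gene expressed widely in the embryo, had 47.4% ± 1.97, 24.1% ± 1.89 and 6.87% ± 0.163 mus reads at days 0, 4 and 7. Maged2 had 44.0% ± 0.782, 9.41% ± 1.07 and 3.21% ± 0.879, and its TPM was 69.8 ± 12.2, 97.5 ± 5.29 and 199 ± 3.20 (SD, n = 2). Of 13 listed Gag-derived genes, 4 were measured. Ldoc1, Rtl8b and Rtl8c had a lower mus share at day 4 than at day 0, against 87.9% of all genes, while Pnma5 did not pass the test. At day 7 all 4, Pnma5 included, were lower than at day 0, against 89.8% of all genes. Ldoc1 had a mean of only 3.5 reads at day 7. Rtl8c had 46.4% ± 5.05 mus reads at day 0, of a mean of 6.5, and 0.409% ± 0.00771 at day 4, while its TPM rose to 70.9 ± 1.39 at day 4, against 2.25 ± 0.207 at day 0. The median share change of the 4 was -3.70 at day 4 and -4.74 at day 7, against -1.81 and -4.22 over all genes. Their median change in log2(TPM + 1) was 0.96 and 0.14, against 0.01 and -0.37 over all genes. Trophoblast markers, of which Esx1 and Plac1 were measured among 5 listed, summed to between 23.3 and 29.7 TPM at day 0, between 8.41 and 9.86 TPM at day 4 and between 96.0 and 103 TPM at day 7, with none at 0. The 2 markers differed in course, with Esx1 at 26.1 ± 4.23, 7.77 ± 1.28 and 16.3 ± 0.653 TPM and Plac1 at 0.324 ± 0.289, 1.36 ± 0.259 and 83.3 ± 5.71 TPM at days 0, 4 and 7. Their part in the course of Morc4 or Trap1a was not tested.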

How the data were processed

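The submitters' processing notes name STAR, HOMER 4.10, Trim Galore 0.4.1, limma and edgeR, and the builds mm10 and GRCm38. What each did, how reads were assigned to alleles and whether strand was used is not given in the sources used here. The authors deposited estimated counts of cas and mus reads per gene (41.353% not whole), the fraction of each allele, which equalled the recomputed share within 1e-09, and TPM, of which the 372 genes hold 2.17% to 3.12% of the full TPM total per library.

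All 372 genes entered each fit. Genes needed a mean of at least 10 reads and 1 TPM, which all met; a member's share was tested where a day had at least 10 reads in all. Counts were rounded to whole numbers for edgeR 4.0.16 (quasi-likelihood test, library terms and an allele term per day, no scaling between alleles; common dispersion 0.00102, prior degrees of freedom infinite, so genes share 1 spread). TPM were tested with limma 3.58.1 (trend) on log2(TPM + 1). P-values were Benjamini-Hochberg adjusted over 372 genes and called at 0.05. Both steps were also run on simulated data of 372 genes. There mus shares varied between libraries only by counting, and the noise in log2(TPM + 1) was independent between libraries. That setting lacks the relation between the days' TPM given below, so it does not check the p-values reported here. An exact permutation test of 2 libraries against 2 cannot go below p = 0.333 and was not used. Wilson intervals cover counting error only.

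The day 7 difference in log2 TPM between libraries is a linear combination of the day 0 and day 4 differences (residual SD at most 1e-12), and its SD is 0.0415, against 0.271 at day 0 and 0.161 at day 4, so the limma p-values may be smaller than they should be. Reads of replicate libraries differed by more than counting noise (chi-square per degree of freedom 3.90, 1.78 and 2.55 at days 0, 4 and 7), so each counted as 1 sample. For the mus share the same measure was 1.08, 1.24 and 1.15, nearer to counting noise alone.

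The members, gene lists and tests were chosen with earlier results of these data known. Genes named beside the 5 members are, by rule, the 3 most alike per measure, the nearest measured neighbours and measured members of the lists; the genes at 45% or more mus reads at day 4 were named after their values were seen. Alternatives were other filters, pseudocounts, tests (DESeq2 1.42.0, limma on the logit, a quasi-binomial model), unrounded counts, scaling to the median gene, summed allele reads, a replicate block, the day 7 pair as 1 library and leaving out each library. Coordinates are from GENCODE M21, in which all 372 symbols were found on chromosome X, and sequences from RefSeq (GRCm38.p6). R 4.3.3, Python 3.11.15, scipy 1.17.1, pandas 2.3.3 and matplotlib 3.10.9 were used.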

Additional observations from a re-analysis of the deposited data

Results flagged for a closer look

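Each value here was picked out because the ratio of mus to cas reads differed between days by a test of the difference itself, edgeR's allele-by-day term with Benjamini-Hochberg adjustment over 372 genes. Morc4 had log2 changes of -1.60 at day 4 and -4.18 at day 7, both relative to day 0, and of -2.57 at day 7 relative to day 4. These are in the direction of most X-linked genes, and relative to the median gene none of the 3 passed the threshold. Tex11 had 1.61 at day 4 relative to day 0, with day 4 libraries at 32.5% and 61.9% mus reads. Pnma5 had -0.89 at day 7 relative to day 0, with day 7 libraries at 29.0% and 45.5%. Trap1a had 2.55 at day 7 relative to day 0 and 2.11 relative to day 4, on 18.5 reads at day 7.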

How the results depend on the processing

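Over all genes, counts of changed mus shares moved by more than 1.5 times when each library's median gene was the zero: 151 genes at day 4 relative to day 0 (330 before), 104 at day 7 relative to day 0 (336) and 63 at day 7 relative to day 4 (258), because most genes shifted together. On that scale Xlr3a (1.86), Pnma5 (1.80) and Morc4 (0.27) changed sign at day 4, and Pnma5 (3.03) at day 7 relative to day 0. Genes off an equal share at day 0 numbered 41 in DESeq2 and 39 in the quasi-binomial model (108 before), and 48 and 45 without day 0 replicate 1 or 2; the cause was not tested. Leaving out each library in turn gave between 309 and 337, between 315 and 327 and between 224 and 243 genes with a changed share in the 3 comparisons of days, and between 45 and 111 at day 0. For expression it gave between 271 and 321, between 298 and 336 and between 301 and 334 genes (305, 316 and 320 before).

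For the 5 genes, 220 of 222 alternative expression results kept direction and side of the threshold. Of 224 alternative share results, 170 stayed on their side of the threshold, 48 lost their call, 2 gained one, and the 4 named above changed sign with a call on at least 1 scale. Another 6, among the 170, changed sign without a call in either fit: 5 for Xlr3a at day 4, whose change is near 0, and Pnma5 at day 7 relative to day 4 (1.22 with the median gene as the zero). Tex11 was not in the fit at a mean of at least 5 TPM. Morc4 kept its calls between days in share under every alternative but the median gene scaling.

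In share, replicate numbers did not pair the libraries. The correlations of same-numbered deviations were -0.10, 0.06 and -0.13 for days 0 and 4, 0 and 7, and 4 and 7. In log2(TPM + 1) they were -0.01, 0.13 and -0.89. The day 7 differences in TPM are a linear combination of the earlier ones, with a coefficient of -0.254 for day 4. So the TPM correlations cannot show whether the libraries were paired. With replicate number as a block, 322, 330 and 244 genes changed in share between days and 78 differed from an equal share at day 0. Under this replicate block no member's expression call was lost, and Tex11 at day 4 (adjusted p = 0.123) and the day 0 calls of Xlr3a (0.477), Trap1a (0.116) and Morc4 (0.0929) were lost. Depth limits Tex11 and Xlr3a at day 7, where no share could be tested, and Trap1a, with 18.5 reads.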
